A study of Macaca mulatta with 28 samples.

Results

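TTR, AQP1, FOLR1, KL and CLIC6 are 5 genes of the choroid plexus, taken from a written list and not by their measured values, out of 15521 genes in the table. They were followed through 28 RNA libraries from a block of brain tissue holding the central nucleus of the amygdala (CeA), 1 library for each male rhesus macaque. The question was which libraries carry choroid plexus or ventricular tissue, and whether that follows drinking category or cohort. The 5 genes moved together only in part. At 4 times the median, 0 of 28 libraries were high in at least 3 of them. At 2 times, a cut added after the data were seen, LD replicate 8 was high in all 5. In a score averaging the log2 levels of other choroid plexus genes it ranked 7th, below VHD replicates 3, 4 and 5. By Pearson's r, TTR was closest to the score of hypothalamic and basal forebrain genes and KL to that of striatal genes. By Spearman's rho, TTR was closest to the choroid plexus score (0.606), ahead of hypothalamic and basal forebrain genes (0.579).

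The choroid plexus is a folded epithelium on a core of vessels that hangs in the brain ventricles and makes most of the cerebrospinal fluid. Its cells move ions and water across the epithelium, carry folate into the fluid and secrete transthyretin, the carrier of thyroid hormone and, with its partner RBP4, of retinol. In brain blocks taken near a ventricle, its RNA can be present. The amygdala lies close to the tip of the temporal horn of the lateral ventricle.

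All animals drank ethanol by choice, and the 28 include none kept without it. They were induced on 4% (w/v) ethanol for about 90 days and then had open access for 22 h a day during more than 12 months. The 6 VHD (very heavy drinker) animals averaged above 3 g/kg a day, with 10% or more of their days above 4 g/kg. The 7 HD (heavy drinker) animals passed 3 g/kg on 20% of days or more. The 5 BD (binge drinker) animals passed 2 g/kg on 55% of days or more and had a yearly blood ethanol of 80 mg/dl. The 10 LD (low drinker) animals fitted no other category. VHD and HD together are called heavy (13 animals) and BD and LD low (15 animals). Cohort 4 (8 animals) had a mean age of 8.24 years at induction and 9.98 years at the end. The ages were 5.63 and 7.15 years in cohort 5 (7 animals), 4.18 and 5.7 years in cohort 7a (8 animals) and 5.69 and 7.18 years in cohort 7b (5 animals). Cohort 5 held heavy animals only, and VHD and LD animals met only in cohort 7a, where there were 2 and 3.

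Brains were perfused before dissection, and the CeA was located by landmarks beside the optic tract and under the globus pallidus. The libraries held 1910514 to 25928489 reads over exons (median 16444833), and the shallowest were BD replicate 1, LD replicate 1 and HD replicate 1. Values are normalized reads, reads over a gene's exons scaled by the authors to a common upper quartile. The worth of 3 reads ran from 1.81 to 24.1 normalized reads among libraries. All 8 marker genes of the CeA that were looked up had reads in every library, among them PRKCD (174 to 917 normalized reads) and NTS (64.9 to 1690 normalized reads). Among blood genes, HBB did not exceed 76.3 normalized reads, with a median of 3.61.

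The members lie apart in the genome. The exon table, whose genome build is not given in the sources used here, places TTR on chromosome 18 (20144191 to 20151785) with 4 exon blocks of 906 bases in all. The chromosome numbers given here are those of the exon table. They may differ from the chromosome numbers of rhesus and of human assemblies. AQP1 is placed on chromosome 7 (76975776 to 76989161) with 4 blocks of 2733 bases. CLIC6 is placed on the same chromosome (11938125 to 11985780) with 6 blocks of 4045 bases. FOLR1 is placed on chromosome 11 (63401575 to 63408172) with 5 blocks of 1144 bases, and KL on chromosome 13 (12565654 to 12617207) with 5 blocks of 4996 bases.

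Reads covered the members' exons unevenly, more so in CLIC6 than in AQP1. In AQP1, the first block by position made up 75.2% of the exon length and held 72.4% of its normalized reads. In CLIC6, the last block made up 34.0% of the length and held 3.83% of the reads, while the first held 70.6% on 53.1% of the length. The first block of KL held 4.43% of its reads on 16.7% of the length. TTR was covered alike in the library where it was highest and in the sum of all, with 42.5% of its reads in its last block in LD replicate 8 and 42.6% in the 28 libraries together. FOLR1 rested on few reads, 146 over the 28 libraries, against 3413 for TTR, 2583 for AQP1, 14499 for KL and 303 for CLIC6.

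**Figure D1:**
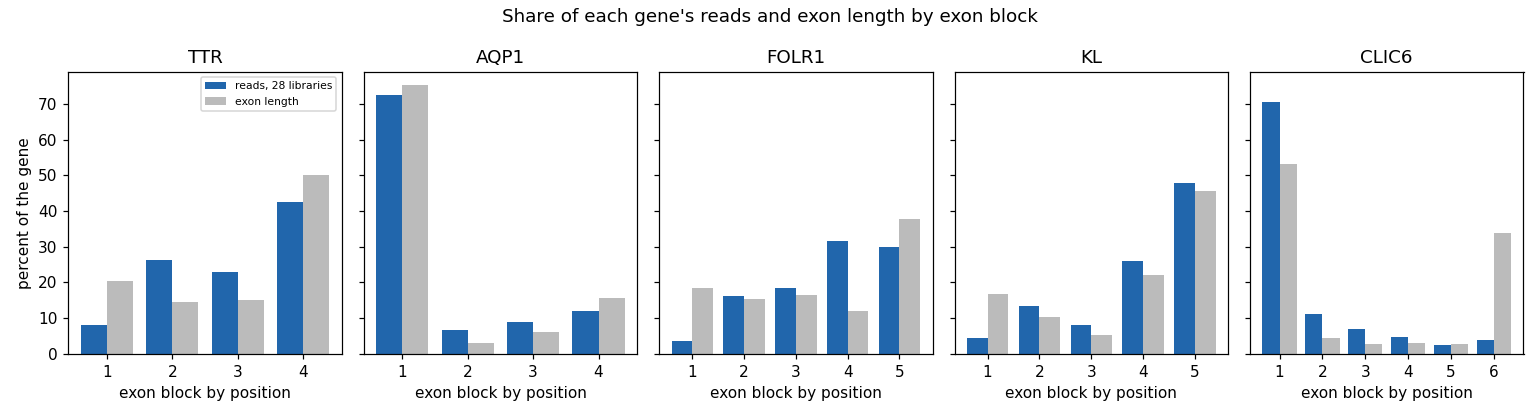
Percent of each gene's normalized reads over 28 libraries (blue) and percent of its exon length (grey) in each exon block, numbered by position. In AQP1 the bars are close (72.4% and 75.2% in block 1), while the last block of CLIC6 holds 3.83% of reads on 34.0% of the length.

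Per kilobase of exon, KL stood highest and CLIC6 lowest. The median over 28 libraries was 85.2 normalized reads per kilobase for KL, 52.0 for TTR, 23.8 for AQP1, 3.51 for FOLR1 and 2.52 for CLIC6. TTR, among the most abundant choroid plexus transcripts in other mammals, stood above KL per kilobase in 9 of 28 libraries, and FOLR1 stood above CLIC6 in 19 of 28. In LD replicate 8, TTR reached 1455 normalized reads per kilobase beside 191 for KL. All 5 varied more between libraries than most genes. The SD of the log2 values was 1.76 for TTR, 1.16 for FOLR1, 1.09 for CLIC6, 1.08 for AQP1 and 0.91 for KL, against a median of 0.27 over 13022 genes, and each was larger than in at least 94.1% of them. For FOLR1 and CLIC6 part of this is counting error, since their variance was 4.14 and 6.47 times that of counting alone (446.6 times for TTR, with a median of 11.5 times over all genes).

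TTR encodes transthyretin, the thyroid hormone carrier of the cerebrospinal fluid. VHD libraries had a lowest value of 13.2, a median of 171 and a highest value of 366 normalized reads. HD libraries had 15.1, 35.2 and 143 normalized reads as lowest, median and highest. The 5 BD libraries had 40.1, 4.04, 48.1, 149 and 53.4 normalized reads, and LD libraries ran from 6.95 through a median of 54.9 to 1319 normalized reads. Every category overlapped every other. The high end was made by a few libraries, LD replicate 8 (1319 normalized reads, 28.0 times the median of the 28) and VHD replicates 5, 3 and 4 (366, 298 and 273). At the low end, BD replicate 2 had 4.04 normalized reads, from 6 reads, and the 40.1 of BD replicate 1 rested on 5 reads. In order of median the categories ran VHD, LD, BD and HD. In such bulk samples, fewer cells of a type and less RNA in each cell cannot be told apart.

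AQP1 encodes the water channel of the apical choroid plexus membrane. VHD libraries had 41.1, 51.1 and 148 normalized reads as lowest, median and highest, and HD libraries had 19.3, 65.9 and 359. BD libraries had 64.1, 62.6, 38.7, 27.8 and 157 normalized reads, and LD libraries had 43.2, 94.7 and 301 as lowest, median and highest. The categories overlapped, and HD held both ends. The 3 highest libraries were HD replicate 4 (359 normalized reads), LD replicate 1 (301) and HD replicate 3 (288). TTR was near or below its median of 47.1 in LD replicate 1 (53.9) and HD replicate 3 (15.1), and above it in HD replicate 4 (143).

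FOLR1 encodes folate receptor alpha, which carries folate through the choroid plexus into the fluid. VHD libraries had 1.28, 8.98 and 13.1 normalized reads as lowest, median and highest, and HD libraries had 0.926, 1.59 and 3.29. BD libraries had 24.1, 6.73, 8.20, 5.75 and 0.876 normalized reads, and LD libraries had 0, 5.07 and 20.9. HD libraries were the lowest by median and still overlapped each other category. The value of 24.1 in BD replicate 1, the shallowest library, stood for 3 reads (exact Poisson 95% interval 4.96 to 70.3 normalized reads) in 2 of the 5 exon blocks. The 20.9 in LD replicate 8 stood for 17 reads (12.1 to 33.4). In LD replicate 1 no read was seen, which allows up to 6.73 normalized reads. Such intervals and limits cover counting error only.

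KL encodes klotho, a coreceptor for FGF23 that the choroid plexus and some neurons make. VHD libraries had 183, 293 and 1089 normalized reads as lowest, median and highest, and HD libraries had 191, 759.9 and 972. BD libraries had 297, 153, 431, 388 and 855 normalized reads, and LD libraries had 219, 582 and 1014. The categories overlapped along nearly the whole range. VHD replicate 1 (1089 normalized reads) was the highest of all, while the other 5 VHD libraries reached at most 390.3. KL differed least between libraries, 7.13 times from lowest to highest, against 327 times for TTR and 18.6 times for AQP1.

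CLIC6 encodes an intracellular chloride channel protein of the choroid plexus epithelium. VHD libraries had 2.47, 5.61 and 15.9 normalized reads as lowest, median and highest, and HD libraries had 3.44, 10.7 and 33.5. BD libraries had 8.02, 11.4, 5.86, 13.4 and 9.63 normalized reads, and LD libraries had 0, 9.76 and 30.3. The categories overlapped, and BD lay within the range of HD. HD replicate 3 (33.5 normalized reads, 42 reads), LD replicate 2 (30.3) and LD replicate 8 (25.8) were highest. LD replicate 5 had no read, which allows up to 2.79 normalized reads.

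**Figure D2:**
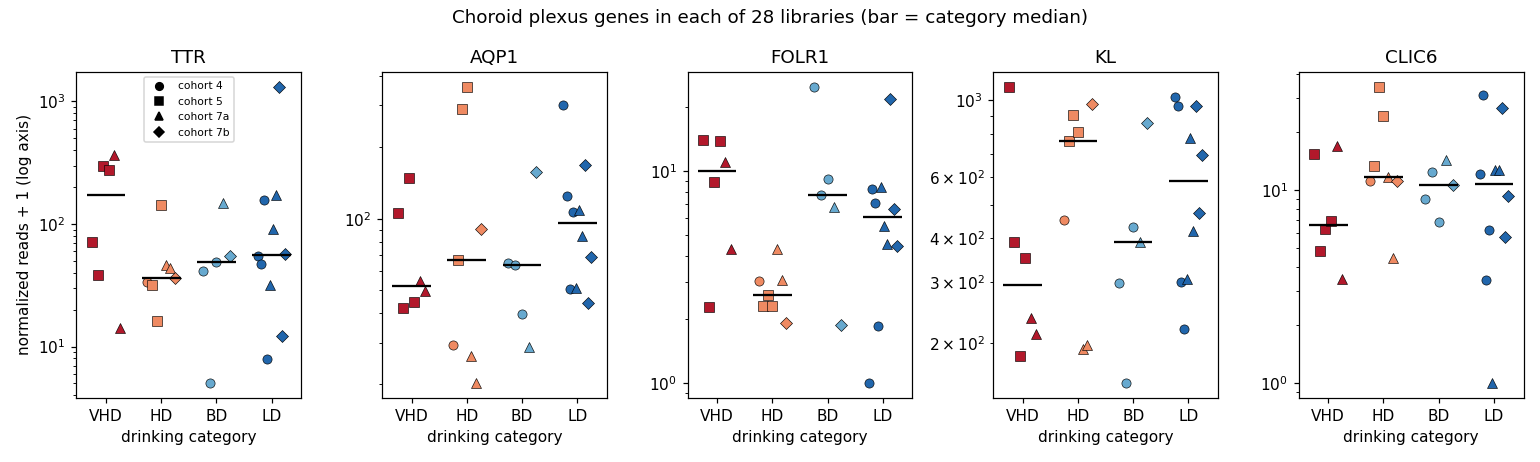
Normalized reads + 1 of each member on a log axis in VHD, HD, BD and LD libraries, 1 point per library with its cohort as the marker and a bar at the category median. The ranges of the categories overlap in every panel, and in TTR the LD library at 1319 normalized reads stands above the 3 VHD libraries between 273 and 366.

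The high values fell in different libraries from gene to gene. At 4 times a gene's median or more, TTR was high in 4 libraries (LD replicate 8 and VHD replicates 3, 4 and 5), AQP1 in 3 (HD replicates 3 and 4 and LD replicate 1) and FOLR1 in 2 (LD replicate 8 and BD replicate 1). KL and CLIC6 were that high in 0 of 28. LD replicate 8 was the 1 library high in 2 members, TTR and FOLR1, and 0 of 28 were high in at least 3. This cut could take in few members jointly, since KL peaked at 2.56 and CLIC6 at 3.29 times the median. At 2 times the median, a cut added after the data were seen, LD replicate 8 was high in 5 of 5, at 28.0 times for TTR, 5.20 for FOLR1, 2.58 for AQP1, 2.53 for CLIC6 and 2.25 for KL. HD replicates 3 and 4 were then high in 3 of the 5, and no other library in more than 2. LD replicate 8 was among the top 7 libraries of each member. AQP1 and KL shared 5 of their top 7 libraries, TTR and FOLR1 shared 4, and TTR and KL shared 1.

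**Figure D3:**
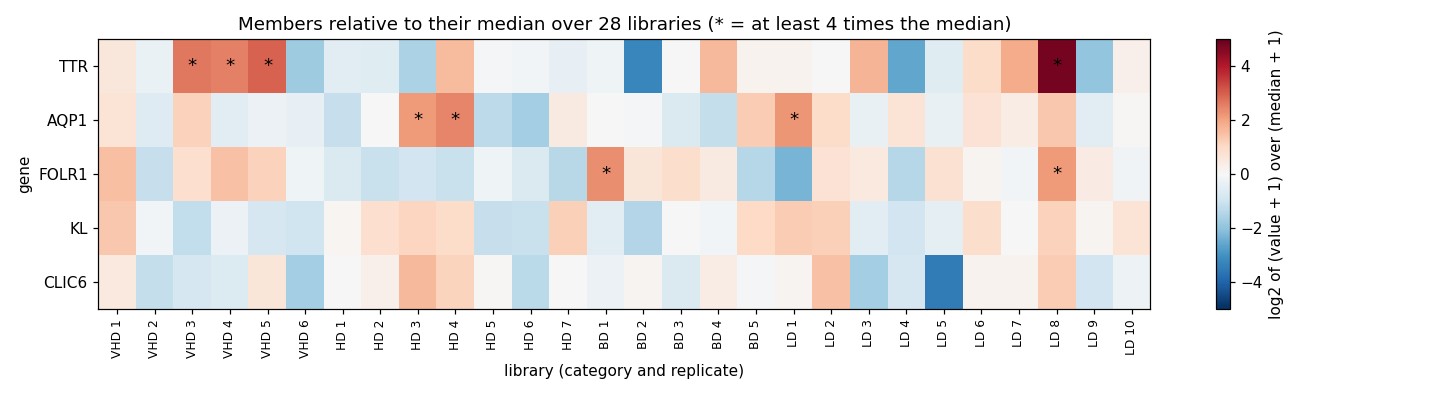
Each member in each library (VHD, HD, BD, then LD) as the log2 of value + 1 over the gene's median + 1, with a star at 4 times the median or more. Stars fall in 8 libraries, and only LD replicate 8 has 2 of them.

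The remaining choroid plexus markers covered a wide range of levels, and several were highest in the libraries named above. Of 30 such genes listed, 24 were in the table, 19 passed the filter on low values, and 6 (among them KCNE2) are not analysed here. OTX2, the homeobox factor that maintains the epithelium, ranged from 0 to 30.2 normalized reads, highest in VHD replicate 5. SLC13A4, a sulfate transporter, reached 165 normalized reads in VHD replicate 3 and 147 in LD replicate 8. KCNJ13, a potassium channel of its apical membrane, ranged from 0 to 191 normalized reads and was highest in LD replicate 1. The summed level of the list was 7166 to 11069 normalized reads in VHD, 6161 to 8582 in HD, 7440 to 8790.4 in BD and 6631 to 9152 in LD libraries, and much of it was ENPP2, CALML4 and SPINT2, which other brain cells also make. KCNJ13, ENPP2, CALML4 and SPINT2 were named after their values were seen.

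LD replicate 8, the library highest in TTR, was among the 4 highest of 28 in 8 of the 19 tested other choroid plexus markers, and at 2 times the median or more in 5 of the 19. The rank limit of 4 was chosen by hand. The shares of all tested genes that meet these cuts in this library were not computed, so the counts have no background. It was the highest in C2orf40 and ACE and the 2nd highest in SLC13A4, at 4.67 times the median. OTX2 was 14.7 normalized reads and KCNJ13 54.0, each the 4th highest. CLDN1 and KRT8 were also 4th, so these genes lay at the rank limit itself. Other markers were low there, with SOSTDC1 the lowest of 28 at 30.7 normalized reads, and the median gene of the list stood at 1.08 times its own median. The library was the highest of 28 in 11 of 11 tested genes of striatal medium spiny neurons, at a median of 4.24 times, and the median gene of the cortical and hippocampal list stood at 0.077 times. PPP1R1B, the DARPP-32 phosphoprotein of those striatal neurons, had 7887 normalized reads there, beside a median of 1234. Ependymal genes, which mark the ventricle lining, were highest there in 1 of 18 (ZMYND10, 217 normalized reads, beside a median of 78.2). The share of all tested genes that were highest in this library was not computed, so the striatal and ependymal counts have no background either. PPP1R1B, ZMYND10, C2orf40, ACE, SOSTDC1, CLDN1 and KRT8 were named after their values were seen.

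VHD replicates 3, 4 and 5, the next highest in TTR, had a different company. Their scores of hypothalamic and basal forebrain genes (for each library, the average over the listed genes of the log2 level minus that gene's mean) ranked 2nd, 4th and 1st of 28. LHX8, a factor of basal forebrain cholinergic neurons, was highest in VHD replicate 3 at 1121 normalized reads, beside a median of 99.8. OXT, the oxytocin gene, was highest in VHD replicate 5 at 4478 normalized reads, beside a median of 1.42. Their scores of the remaining choroid plexus genes ranked 1st, 2nd and 4th, and their striatal scores 21st, 17th and 23rd. LD replicate 8 ranked 7th in the choroid plexus score, below all 3 of them, and 1st in the striatal score. OXT was named after its values were seen.

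None of the 5 differed past the test between drinking categories. In heavy against low animals, with cohort in the model, limma called 0 of the 5 and 0 of 13022 genes (0%; 544 or 4.18% at an unadjusted p under 0.05). On the recovered reads edgeR called 0 genes and DESeq2 1, none of them a member. TTR averaged 108 ± 123 normalized reads in heavy and 149 ± 328 in low animals (SD, n = 13 and 15), and the fold from limma was 0.647 with a 95% interval of 0.189 to 2.21. AQP1 averaged 101 ± 106 normalized reads in heavy and 96.7 ± 70.7 in low animals, with a fold of 0.567 (0.287 to 1.12). The fitted folds were 0.736 (0.421 to 1.28) for KL, 0.603 (0.247 to 1.47) for FOLR1 and 1.08 (0.482 to 2.44) for CLIC6, with adjusted p-values by limma of 0.998 to 0.999 for the 5 genes. With 1 added to each value before the log, the differences of low genes come out too small. Cohort 5 has no low animals and enters these means but does not inform these folds. The log2 difference of TTR was -0.63 with the cohort term and 0.18 without it.

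Within cohorts the heavy minus low difference of the log2 values kept its sign in 3 of the 5 genes. The share of all tested genes that kept their sign was not computed, so this count has no background. AQP1 stood at -1.54, -0.81 and -0.06 in cohorts 4, 7a and 7b, where cohorts 4 and 7b hold 1 heavy animal each. FOLR1 stood at -0.91, -0.30 and -1.62, and CLIC6 at 0.26, 0.10 and 0.01. The sign varied for TTR (0.08, -0.70 and -1.22) and for KL (0.23, -1.09 and 0.44). A test of whether the heavy minus low difference changes with cohort called 0 of 13022 genes by limma (608 or 4.67% at an unadjusted p under 0.05), with adjusted p-values of 0.936 to 0.999 for the members.

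VHD animals had the lowest median of KL and AQP1 and the highest of TTR. Against LD, with cohort as a term, KL had a fold of 0.461 (0.228 to 0.934), and the limma p was 0.0328 unadjusted and 0.579 adjusted over all genes. For AQP1 the log2 difference was -1.30 (SE 0.63; limma p 0.0501 unadjusted, 0.583 adjusted). TTR had a fold of 1.02 (0.196 to 5.25), whose sign rested on single libraries, with log2 differences of -0.82 without VHD replicate 5 and 1.18 without VHD replicate 6. FOLR1 and CLIC6 had folds of 1.41 (0.463 to 4.26) and 0.732 (0.251 to 2.14). Over all genes limma called 0 (0%; 1116 or 8.57% unadjusted), edgeR 0 and DESeq2 4, no member among them. The same comparison gave a median log2 difference of 1.16 for the 11 hypothalamic and basal forebrain genes and of -0.35 for the 11 striatal genes, against 0.01 over all genes, and the part of these regions in the members' values was not tested.

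HD and BD animals did not differ from LD animals past the test in any of the 5. HD against LD gave folds of 0.470 (0.121 to 1.82) for TTR, 0.534 (0.254 to 1.12) for AQP1, 0.510 (0.204 to 1.27) for FOLR1, 0.766 (0.428 to 1.37) for KL and 1.36 (0.562 to 3.29) for CLIC6. BD against LD gave folds of 0.687 (0.183 to 2.58) for TTR, 0.632 (0.307 to 1.30) for AQP1, 1.45 (0.592 to 3.54) for FOLR1, 0.717 (0.406 to 1.26) for KL and 1.22 (0.514 to 2.89) for CLIC6. The 3 category comparisons share the LD animals. limma called 0 genes in each (0%; 516 or 3.96% and 458 or 3.52% unadjusted), as did edgeR, while DESeq2 called 1 and 0, no member.

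The 4 cohorts were closer to a difference for KL and AQP1 than for the rest. KL had medians of 365 normalized reads in cohort 4, 759.9 in cohort 5, 270.3 in cohort 7a and 855 in cohort 7b. The AQP1 medians were 63.4, 105, 49.4 and 89.8 normalized reads in cohorts 4, 5, 7a and 7b. With category in the model, limma's F test over cohorts gave KL an adjusted p of 0.409 (0.0114 unadjusted) and AQP1 an adjusted p of 0.464 (0.0239 unadjusted), and no gene passed (0%; 1225 or 9.41% unadjusted). edgeR called 0 genes over cohorts and DESeq2 19, no member among them. TTR medians were 43.1, 69.7, 67.2 and 53.4 normalized reads (adjusted p 0.843 by limma). In cohort 7a the KL range was 191 to 776 normalized reads, and in cohort 7b 473 to 972, so the cohorts overlapped. Of 11 striatal genes, 7 had an unadjusted p under 0.05 over cohorts and 0 passed by limma, and their part in the KL values was not tested.

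Across the 28 libraries, AQP1, KL and CLIC6 varied together, while the relations of TTR to each of them missed the threshold. Over all pairs of members and all pairs of a member with a list score or depth, 65 relations were computed, with permutation p-values (100000 permutations, two-sided) adjusted over the 65. AQP1 and KL had a Pearson r of 0.593 (p 0.00089, adjusted 0.00624) and a Spearman rho of 0.562 (p 0.00218, adjusted 0.0109). KL and CLIC6 had r = 0.542 (p 0.00229, adjusted 0.0124) and rho = 0.533 (p 0.00393, adjusted 0.0170), and AQP1 and CLIC6 r = 0.506 (p 0.00578, adjusted 0.0251) and rho = 0.505 (p 0.00697, adjusted 0.0283). Without the 2 libraries farthest from the median of the first gene, r was 0.532, 0.593 and 0.472 in the same order. Within cohorts 4, 5 and 7a, r was 0.489, 0.346 and 0.729 for AQP1 and KL, 0.526, 0.802 and 0.274 for KL and CLIC6 and 0.369, 0.784 and 0.130 for AQP1 and CLIC6, while cohort 7b had too few libraries. TTR had r = 0.413 with FOLR1 (p 0.0278, adjusted 0.101; rho 0.415, p 0.0285, adjusted 0.103), 0.239 with CLIC6, 0.180 with KL and 0.148 with AQP1. Pairs past the threshold were 3 of 10. Many genes outside the set were closer to these members than they were to each other. Of 13021 genes, 735 had a higher r with KL than AQP1 had, and 1004 a higher one than CLIC6 had. With AQP1, 188 genes had a higher r than KL and 520 a higher one than CLIC6. With CLIC6, 144 genes had a higher r than KL and 236 a higher one than AQP1.

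KL followed the genes of striatal medium spiny neurons, the projection neurons of the caudate and putamen. Its r with their score was 0.840 and its rho 0.937, each with p = 1e-05, the smallest the permutations can give, and an adjusted p of 0.000325. The r was 0.881, 0.840 and 0.885 within cohorts 4, 5 and 7a, and 0.820 without the 2 libraries farthest from the KL median. AQP1 had r = 0.689 (p 4e-05, adjusted 0.000867) and rho = 0.652 (p 0.00018, adjusted 0.0039) with the same score, with 0.740, 0.713 and 0.570 within the cohorts and 0.617 without its 2 farthest libraries. CLIC6 had r = 0.521 (p 0.00542, adjusted 0.0251) and rho = 0.570 (p 0.00173, adjusted 0.00937), with 0.393, 0.868 and 0.183 within the cohorts and 0.550 without its 2 farthest libraries. All 3 ran against the cortical and hippocampal glutamatergic genes, with r = -0.612 for KL (p 0.00082, adjusted 0.00624; rho -0.628, p 0.00053, adjusted 0.00787), -0.630 for AQP1 (p 0.00035, adjusted 0.00455; rho -0.592, p 0.00121, adjusted 0.00787) and -0.539 for CLIC6 (p 0.00257, adjusted 0.0129; rho -0.492, p 0.00846, adjusted 0.0324). Within cohorts 4, 5 and 7a the KL value was -0.965, 0.338 and -0.508, so it did not hold in cohort 5. For AQP1 it was -0.617, -0.461 and -0.491, and for CLIC6 -0.603, -0.087 and -0.632. With the score of the remaining choroid plexus genes, r was 0.232 for KL, 0.150 for AQP1 and 0.140 for CLIC6. The relations of the members other than TTR were added after the data were seen.

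TTR followed hypothalamic and basal forebrain genes and astrocyte genes. With the first score r was 0.617 (p 0.00049, adjusted 0.00464) and rho 0.579 (p 0.00151, adjusted 0.00892), with 0.727, 0.757 and 0.854 within cohorts 4, 5 and 7a and 0.664 without the 2 libraries farthest from the TTR median (LD replicate 8 and BD replicate 2). With the astrocyte score r was 0.579 (p 0.00136, adjusted 0.00804) and rho 0.587 (p 0.00115, adjusted 0.00787), with 0.514, 0.752 and 0.764 within the cohorts and 0.583 without those 2 libraries. Against the cortical and hippocampal score r was -0.581 (p 0.00096, adjusted 0.00624) and rho -0.589 (p 0.00114, adjusted 0.00787), with -0.410, -0.673 and -0.881 within the cohorts. Without those 2 libraries it was -0.474, with an adjusted p of 0.0654. GJA1 and AQP4, a gap junction protein and the water channel of astrocyte endfeet, had r = 0.557 and 0.534 with TTR. Of the 12 astrocyte genes 11 had a positive r, while SLC1A2, a glutamate transporter, had r = -0.360.

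The relation of TTR to the remaining choroid plexus genes lay near the threshold. Its r was 0.472 (p 0.0133, adjusted 0.0538) and its rho 0.606 (p 0.00086, adjusted 0.00787). Within cohorts 4, 5 and 7a, r was 0.136, 0.830 and 0.828, so it was not seen in cohort 4. Without BD replicate 1, the shallowest library and the lowest in this score, r was 0.606 (adjusted permutation p 0.00691). Of the 19 tested genes, 14 had a positive r with TTR, led by OTX2 (0.621), SLC13A4 (0.461), the prolactin receptor PRLR (0.457) and the homeobox gene MSX1 (0.429). The r was negative for SOSTDC1 (-0.480), IGFBP2 (-0.239), SPINT2 (-0.190), WFDC2 (-0.148) and ACE (-0.031). By limma slope on TTR, with cohort as a term, 13 of the 19 were above 0, beside 7128 of 13021 genes. Ependymal genes had r = 0.171 as a score and a median r of 0.026, positive in 9 of 18. They ran from 0.512 for FOXJ1, the master factor of motile cilia, to -0.291 for RSPH1, a protein of the cilium's radial spokes. Meningeal genes had 0.260 as a score and endothelial genes 0.390, and the number of reads in the library had -0.122.

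**Figure D4:**
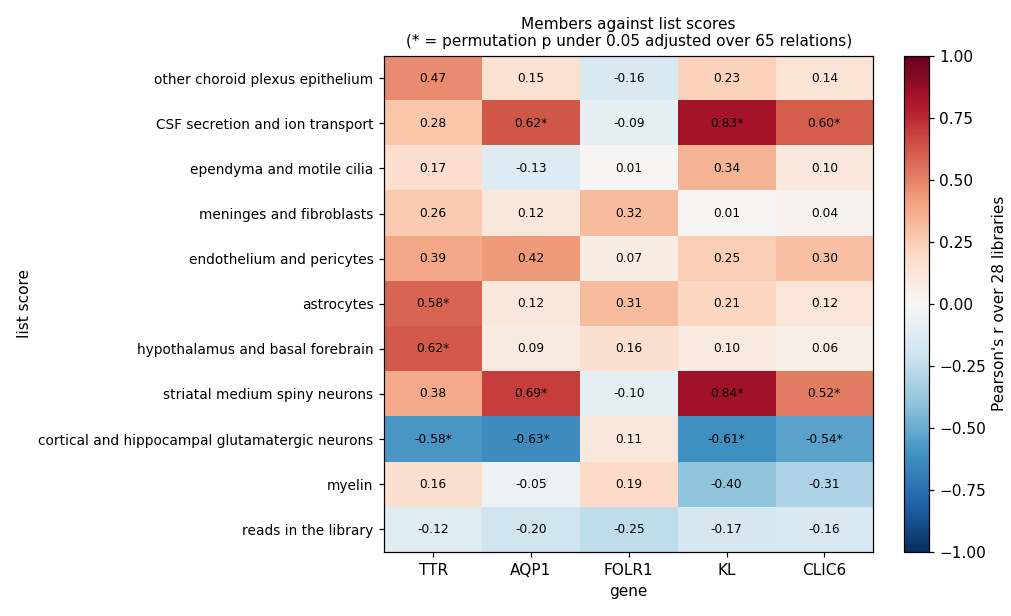
Pearson's r over 28 libraries between each member and 10 list scores and the number of reads in the library, with a star where the permutation p adjusted over 65 relations is under 0.05. KL reaches 0.84 with striatal genes and TTR 0.62 with hypothalamic and basal forebrain genes, and FOLR1 has no star.

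**Figure D5:**
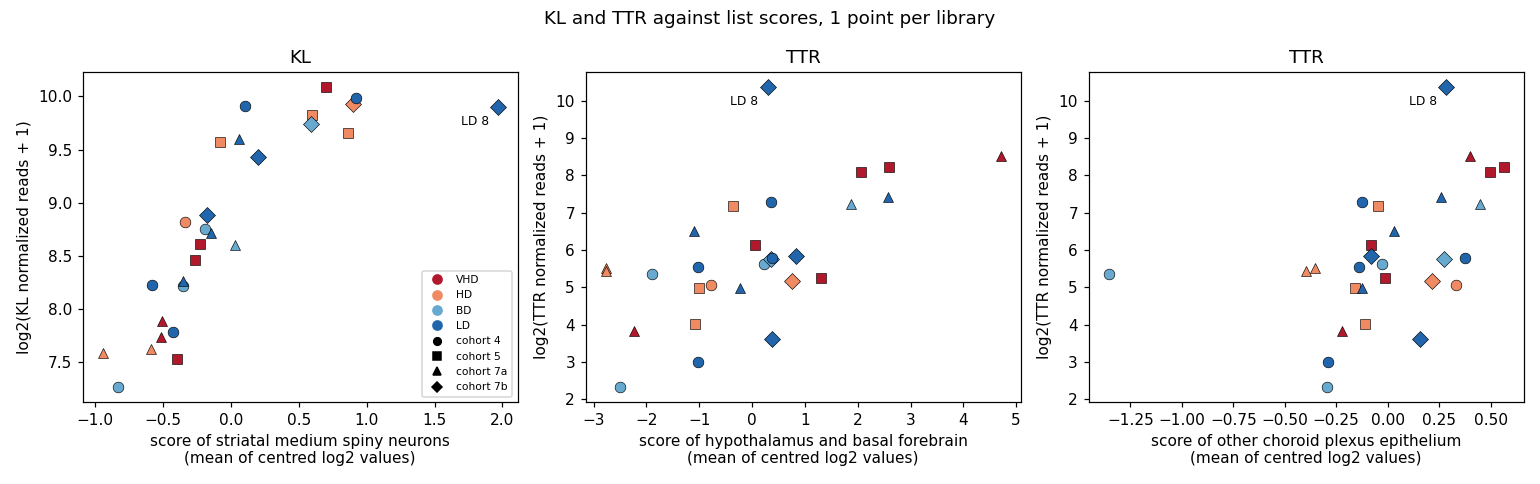
KL against the striatal score and TTR against 2 other scores, 1 point per library coloured by category (VHD, HD, BD, LD) with the cohort as the marker. KL climbs with the striatal score up to LD replicate 8 at the right end, while in both TTR panels that library lies above the rest.

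Gene by gene, the genes called with TTR included markers of other brain regions, and no other member passed. With cohort as a term, limma called 243 of 13021 genes on the log2 level of TTR (1.87%), 70 with a higher (0.538%) and 173 with a lower level (1.33%) where TTR was high. Of the other 4 members it called 0 (1 at an unadjusted p under 0.05, FOLR1, beside 2472 of all genes). FOLR1 had a slope of 0.31 (95% interval 0.05 to 0.57; adjusted p 0.184 by limma). Among 11 tested hypothalamic and basal forebrain genes, LHX8 and SLC5A7, the choline transporter, rose with TTR (slopes 0.69 and 0.79, adjusted p 0.0266 and 0.0379 by limma), and the list had a median slope of 0.69 against 0.005 over all genes. Among 19 other choroid plexus genes 0 were called, with a median of 0.05, and among 18 ependymal genes 0, with a median of 0.02. Among 11 tested striatal genes, the receptor GPR6 rose (slope 0.40, adjusted p 0.0266 by limma) and no other was called. Slopes were above 0 in 9 of the 11, and that of DRD1, a dopamine receptor, was -0.16 (adjusted p 0.215 by limma). Of 11 cortical and hippocampal genes 3 fell (EMX1, NEUROD2 and NEUROD6, slopes -0.77, -1.04 and -1.04).

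Those counts turned on LD replicate 8. Without it, 1201 of 13021 genes were called on TTR (9.22%), among them 228 of the 243. The list of hypothalamic and basal forebrain genes then had 7 of 11 called, all rising with TTR, among them CHAT, LHX8, OXT and SLC5A7. Of the remaining choroid plexus genes 2 of 19 rose (OTX2 and PRLR), and of ependymal genes 2 of 18 (CAPS and SPEF2). Of 11 striatal genes 1 rose (GPR6) and 1 fell (DRD1), and of 12 astrocyte genes 3 rose and 1 fell (SLC1A2). Counts in lists this small were not tested against the 9.22% of all genes. The 4 other members were still called 0 times. The count was 1118 without LD replicate 3 and 42 without VHD replicate 5, and lay between 62 and 146 without each of BD replicates 2 and 4, LD replicates 4, 5, 7 and 9, HD replicate 2 and VHD replicates 4 and 6.

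KL was tied to many more genes. On its log2 level limma called 2138 of 13021 genes (16.4%, and 30.6% at an unadjusted p under 0.05), 1058 rising (8.13%) and 1080 falling (8.29%), a fit added after the data were seen. AQP1 rose with KL (slope 0.64, 0.21 to 1.07, adjusted p 0.0359 by limma), as did CLIC6 (0.70, 0.21 to 1.19, adjusted p 0.0450). Both calls ended without the 3 libraries with fewest reads (adjusted p 0.0963 and 0.0586 by limma). TTR had a slope of 0.37 (-0.47 to 1.22) and FOLR1 one of -0.31 (-0.93 to 0.32). Of the 11 tested striatal genes 9 rose with KL, such as DRD2, a dopamine receptor (slope 1.03, adjusted p 0.000244), PDE10A, a striatal phosphodiesterase (0.39, adjusted p 0.0362), and RGS9, a regulator of G protein signalling (0.46, adjusted p 0.0142), all by limma. GPR6 and DRD1 were not called on KL, with slopes of 0.59 and -0.09 (adjusted p 0.0863 and 0.743 by limma). Of the 19 other choroid plexus genes 2 rose (CLDN1 and PRLR) and 1 fell (IGFBP2).

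The genes most like each member, over 28 libraries on the log2 scale, differed from member to member. TTR was most like CRABP1, a cytosolic retinoic acid-binding protein (r = 0.770), and MYO5B, an unconventional myosin (0.759), then PRKAR2B, PRPSAP1, PPAPDC1A, SLC10A4, NKX2-1, C20orf27, SLCO5A1 and PCP4 (0.724 to 0.683). NKX2-1 is a homeobox factor of the ventral forebrain and averaged 45.7 normalized reads. KL was most like RCN1, a calcium-binding protein of the endoplasmic reticulum (0.953), P2RY1, a receptor for ADP (0.942), HTR1D, a serotonin receptor (0.941), and PENK, the enkephalin precursor (0.938), then ARSJ, PDE7B, MST4, IQGAP2, SYNDIG1L and TPBG (0.938 to 0.912). AQP1 was most like MOB3B (0.827), MBNL1, STARD3, LRRC1, WFS1, KCNN4, OSBPL11, CDCA7, RAP2C and TRAIP (0.776 to 0.745). FOLR1 was most like RIN3 (0.699), CHRNB1, MORF4L1, KDELR2, ATP5J, STK17B, PAIP1, TMSB15B, VPS45 and RAB7A (0.673 to 0.633), and CLIC6 like GPR78 (0.721), PPAT, RGS1, CUL4B, DGKB, IL13RA1, ANGEL1, OSBPL11, GLT8D2 and SEMA3D (0.708 to 0.648). OSBPL11 stood in 2 of these sets of 10, those of AQP1 and CLIC6.

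Genes of the pathways in which the members work were called in small numbers, against 16.4% of all genes on KL and 1.87% on TTR. Of 12 genes of fluid secretion and ion transport, 2 rose with KL (CA12 and CA2, carbonic anhydrases, slopes 1.30 and 0.28) and 1 fell with TTR (SLC4A10, a bicarbonate transporter, slope -0.10). As a score this list had r = 0.830 with KL (p 1e-05, adjusted 0.000325; rho 0.840, p 1e-05, adjusted 0.000325), with 0.772, 0.751 and 0.892 within cohorts 4, 5 and 7a and 0.832 without the 2 farthest libraries. CA12 alone had r = 0.861 with KL and ran from 26.3 to 1452 normalized reads, highest in LD replicate 8, while the median r of the 12 genes with KL was -0.04. AQP1 had r = 0.622 with that score (p 0.00023, adjusted 0.00374; rho 0.605, p 0.0008, adjusted 0.00787; 0.432, 0.588 and 0.556 within the cohorts, 0.569 without its 2 farthest libraries). CLIC6 had r = 0.605 (p 0.0005, adjusted 0.00464; rho 0.602, p 0.00096, adjusted 0.00787; 0.765, 0.806 and 0.336 within the cohorts, 0.573 without its 2 farthest libraries).

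Partners of the other members are given against the same shares of all genes, 16.4% called on KL and 1.87% on TTR. Counts in lists this small were not tested against those shares. Of 6 tested genes of thyroid hormone and retinol transport, 0 were called on TTR, and RBP4, the retinol carrier, and SLC16A10, an amino acid and thyroid hormone transporter, rose with KL (slopes 0.42 and 0.29). ALB, albumin, stayed at or under 18.9 normalized reads. Of 13 tested folate genes 0 were called on TTR and 2 rose with KL (SLC46A1, the proton-coupled folate transporter, slope 0.12, and SHMT1, slope 0.31). Of 6 tested genes of the klotho and FGF receptor group 1 fell with KL (BACE1, a protease, slope -0.10), and the klotho ligand FGF23 was at most 2.24 normalized reads. Of 3 tested aquaporins 0 were called on either gene. Of 4 CLIC genes CLIC5 rose with KL (slope 0.75).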

How the data were processed

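RNA of 28 dissected CeA blocks was sequenced as stranded libraries after ribosomal RNA depletion. The submitters' processing notes name CASAVA, FastQC, STAR 2.3.0e and edgeR, with no build or annotation given in the sources. The gene table deposited by the authors holds a signal per gene, upper-quartile normalized reads. The exon table deposited by the authors holds the same quantity rounded, used here as a score per exon. Whole reads could be recovered, with 100% of values within 0.02 of a whole number. Each table has 30 columns, of which 2 were not used.

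Genes with at least 10 normalized reads in at least 5 libraries were tested (13022 genes), which all 5 members passed, FOLR1 with 5 libraries, CLIC6 with 15, TTR with 26 and AQP1 and KL with 28. The 5 libraries of FOLR1 were VHD replicates 1, 4 and 5, LD replicate 8 and BD replicate 1. In BD replicate 1 its value stood for 3 reads, and without that value it would have missed the filter. Its folds, slopes and r values carry this limit. limma 3.58.1 in R 4.3.3 was run with a mean-variance trend on log2(value + 1), with cohort as a term, Benjamini-Hochberg adjustment over all genes and a threshold of 0.05, two-sided. Alternatives on the recovered reads were DESeq2 1.42.0 and edgeR 4.0.16 with its quasi-likelihood test. Further settings were pseudocounts 0.5 and 8, a filter at 50 and none, TMM scaling, robust priors, a model without cohort, cohort 7a alone, and libraries left out. Code was tested on simulated data. Group p-values measure the spread between animals, 1 library each. The members, the lists and the tests were chosen with earlier results of these data known. Named genes are the members, the 10 genes most correlated with each, and per list up to 4 with the highest r with TTR. Genes called in a list are also named, and were chosen by their calls. Of the 5 members, 5 matched the RefSeq gene list by symbol.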

Additional observations from a re-analysis of the deposited data

Results flagged for a closer look

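Single libraries stood apart from the rest of their category or cohort in 15 of 40 groups looked at, by the gap to the nearest library relative to the range of the normalized reads. Chance flags about 1 in 20 groups where values are normally distributed. These values are skewed and each library is in both a category and a cohort, so that rate was not shown to hold here. TTR stood apart at 1318.6 normalized reads in LD replicate 8, both among LD and in cohort 7b, at 143.1 in HD replicate 4 among HD, at 155.5 in LD replicate 3 in cohort 4 and at 366.0 in VHD replicate 5 in cohort 7a. AQP1 stood apart at 156.7 in BD replicate 5 among BD and at 300.7 in LD replicate 1, both among LD and in cohort 4. FOLR1 did so at 20.9 in LD replicate 8, both among LD and in cohort 7b, and at 24.1 in BD replicate 1 in cohort 4, a value of 3 reads. KL did so at 1089.2 in VHD replicate 1 among VHD and at 776.3 in LD replicate 6 in cohort 7a. CLIC6 did so at 30.3 in LD replicate 2 in cohort 4 and at 25.8 in LD replicate 8 in cohort 7b. LD replicate 8 accounts for 5 of the 15, in 3 of the 5 genes.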

How the results depend on the processing

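Category and cohort differences of the members stayed outside the limma threshold under each setting run. Signs turned in some. CLIC6 in heavy against low animals was 0.12 on the log2 scale, and was -0.033 with a pseudocount of 8, -0.16 with edgeR and -0.16 with DESeq2. TTR in heavy against low animals was 0.18 without the cohort term. TTR in VHD against LD was -0.13 in cohort 7a alone, -0.21 without the 3 libraries with fewest reads and -0.02 with edgeR. In BD against LD, TTR was 0.92 in cohort 7a alone, FOLR1 was -0.195 without those 3 libraries, and CLIC6 was -0.036 with edgeR and -0.10 with DESeq2. CLIC6 in VHD against LD was 0.49 in cohort 7a alone. The r of TTR with striatal genes, 0.378 in all libraries, was -0.014 without LD replicate 8 and BD replicate 2. The cause was not tested in any of these. Libraries high in at least 3 members were 0 at 4, 3 and 8 times the median and 3 at 2 times, where KL and CLIC6 also reach the cut.

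With each library left out in turn, these log2 differences ran from -0.35 to 0.30 for CLIC6 in heavy against low animals, from -0.82 to 1.18 for TTR in VHD against LD (11 of 28 with the sign turned), from -0.10 to 0.70 for CLIC6 in HD against LD, from -0.985 to 0.044 for TTR in BD against LD and from -0.015 to 0.577 for CLIC6 in BD against LD.

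Counts of called genes were 0 by limma and by edgeR in each category and cohort comparison (unadjusted by edgeR 585 in heavy against low, 1220 in VHD against LD, 532 in HD against LD, 315 in BD against LD and 1340 over cohorts). DESeq2 called 1, 4, 1, 0 and 19 in the same order. Left-out libraries gave up to 1 gene in VHD against LD (without VHD replicate 6), up to 1 in HD against LD (without HD replicate 5) and 0 to 40 over cohorts (40 without LD replicate 2). The count on TTR was 434 without the cohort term, 712 without LD replicate 8 and BD replicate 2, and 42 to 1201 with each library left out. The count on KL was 1508 to 2568. The KL calls of AQP1 and CLIC6 were lost in 9 and 19 of 28 such fits, with slopes of 0.51 to 0.84 and 0.61 to 0.85. The r of TTR with the remaining choroid plexus genes ran from 0.429 to 0.606 and passed in 7 of 28, and also with a pseudocount of 8 (0.488) and without the 3 libraries with fewest reads (0.664). The r of KL with striatal genes ran from 0.827 to 0.896.

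No paired analysis was possible because replicate numbers follow the order of the samples and pair no animals. Cohort and category overlap in part, and depth limits FOLR1 and CLIC6, whose values rest on 146 and 303 reads in all. Slopes were not run with edgeR or DESeq2, and cohort 7a alone gives no cohort test.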
